A study of Mus musculus with 12 samples.

Results

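Immediate early response genes are switched on within minutes of a growth factor, cytokine, injury or stress signal, with no need for new protein. The signal runs through the MAP kinases to factors that already sit on their promoters, and the transcripts are short lived. In the colon they are known from epithelium, muscle, stroma and immune cells alike. The 10 genes described here were taken by symbol from the table of all genes, which has 55335 rows, and each symbol had 1 row. They are Fos, Fosb, Jun and Junb, whose proteins pair into the AP-1 transcription factor, and Atf3, a related factor of the ATF family. Egr1 codes for a zinc finger transcription factor and Nr4a1 for an orphan nuclear receptor. Ier2 codes for a nuclear protein, Ier3 for a regulator of cell survival and of ERK and NF-kB signalling, and Dusp1 for a phosphatase that switches off the p38 and JNK kinases. All 10 passed the filter of a mean of at least 1 FPKM, a fragment count scaled to transcript length and library size, over the libraries, as did 13794 genes in all.

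The colons came from wild-type mice with experimental colitis, and colitis was shared by all 4 groups, so there was no group without it. DSS thymopentin mice had dextran sulfate sodium colitis, raised by a polymer toxic to the epithelium, and received thymopentin, a synthetic pentapeptide modelled on the thymic protein thymopoietin. DSS saline mice had the same colitis and received normal saline. TNBS thymopentin mice had trinitrobenzene sulfonic acid colitis, raised by a hapten, and received thymopentin, and TNBS saline mice had this colitis and received normal saline. There were 3 libraries per group and 12 in all. Strain, age, sex, dose and time of killing are not stated in the sources used here. Nothing in the labels says how mice and libraries correspond, so the p-values measure the spread between these libraries.

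Libraries summed to 384431 to 532510 FPKM, and 13160 to 13805 genes reached 1 FPKM. The epithelial list Epcam, Cdh1, Krt8, Krt20, Vil1 and Cdx2 summed to between 2850 and 4319 FPKM in every library, with none of its 6 genes at 0 throughout. TNBS saline 3 stood apart as a piece of colon: its Hoxb13, a marker of distal colon, was at 0.722 FPKM, against 50.04 and 86.9 FPKM in the other TNBS saline libraries. Its Fabp2, a fatty acid binding protein of absorptive cells, was at 454 FPKM. TNBS thymopentin 3 held 49.4 FPKM of Hoxb13 and 242 FPKM of Fabp2, and TNBS saline 1 held 275 FPKM of Fabp2 beside its 50.04 FPKM of Hoxb13. Cells of the colon were not separated, so fewer cells of a type and less RNA per cell cannot be told apart in any value below.

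The promoters of 4 members are shown because Ier3, Nr4a1 and Dusp1 were the members whose DSS groups did not overlap, and Fos was the member whose log2 fold change in DSS was nearest to 0. Each runs from 250 bases before to 50 bases after the RefSeq start of the gene on GRCm38.p6, in the gene's own direction. RefSeq promoters were matched by symbol for 8 of the 10 genes, and Egr1 and Ier2 had no entry. Capitals mark the core of the cyclic AMP response element (CRE), TGACG on either strand, where the factors CREB and ATF bind, and its full palindrome TGACGTCA.
Ier3, chr17:35821463-35821762, plus strand: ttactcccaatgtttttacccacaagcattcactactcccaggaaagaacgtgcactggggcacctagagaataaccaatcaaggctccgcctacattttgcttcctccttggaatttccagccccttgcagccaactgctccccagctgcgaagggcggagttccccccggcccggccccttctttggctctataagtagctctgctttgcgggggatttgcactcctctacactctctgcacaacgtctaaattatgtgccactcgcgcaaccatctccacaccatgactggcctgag
Nr4a1, chr15:101266596-101266895, plus strand: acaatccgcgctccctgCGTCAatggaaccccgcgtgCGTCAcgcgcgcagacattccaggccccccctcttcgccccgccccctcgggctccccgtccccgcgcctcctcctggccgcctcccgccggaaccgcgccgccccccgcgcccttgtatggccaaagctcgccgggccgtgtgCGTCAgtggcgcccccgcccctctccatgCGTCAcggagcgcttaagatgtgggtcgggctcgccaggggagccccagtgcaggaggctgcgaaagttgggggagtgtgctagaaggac
Dusp1, chr17:26508423-26508722, minus strand: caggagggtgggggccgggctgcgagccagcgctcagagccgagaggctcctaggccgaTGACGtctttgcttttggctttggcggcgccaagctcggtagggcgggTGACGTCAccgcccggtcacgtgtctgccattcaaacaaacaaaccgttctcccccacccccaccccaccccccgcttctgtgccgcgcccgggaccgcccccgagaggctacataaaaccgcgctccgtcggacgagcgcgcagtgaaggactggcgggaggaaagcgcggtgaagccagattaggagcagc
Fos, chr12:85473640-85473939, plus strand: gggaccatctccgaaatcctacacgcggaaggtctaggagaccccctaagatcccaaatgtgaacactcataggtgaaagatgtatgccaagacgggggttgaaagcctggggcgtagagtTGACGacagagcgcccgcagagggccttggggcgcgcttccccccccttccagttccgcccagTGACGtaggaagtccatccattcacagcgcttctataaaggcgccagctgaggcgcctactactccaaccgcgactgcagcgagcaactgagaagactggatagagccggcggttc

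The CRE core stood in 6 of the 8 promoters, those of Nr4a1, Dusp1, Fos, Fosb, Junb and Atf3, and in 20.8% of the 32851 promoters of the table. Nr4a1 carried it 4 times, at positions -233, -213, -69 and -40 from the start. Dusp1 carried it 3 times, of which a pair overlap in the full palindrome TGACGTCA, found in 1.79% of all promoters. Fos carried it 2 times, at -129 and -66. Of all promoters 5.01% held at least 2 copies and 1.03% at least 3. The AP-1 element TGANTCA, found in 7.81% of all promoters, was in 0 of the 8. The CArG box, the element of serum response factor, was in 0 of the 8 and in 1.63% of all promoters. TATAAA was in Fos and Junb and in 13.6% of all promoters. The EGR element GCGNGGGCG, searched on both strands like the others, was in Fosb and Nr4a1 and in 5.55% of all promoters. These matches are letters within 300 bases and describe no binding. Elements farther from the start, and those of Egr1 and Ier2, were not searched. Ier3, the member with the firmest change in DSS, held none of the 6 motifs as spelled here, and neither did Jun, which missed the threshold. Variants of the motifs were not searched, and the Jun window holds tgacatca, which none of these spellings matches. Any link between motifs and responses was not tested.

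In DSS colitis Ier3 fell with thymopentin, and no other member passed the test. Ier3 averaged 6.09 ± 0.892 FPKM in DSS thymopentin colons, against 15.4 ± 4.02 FPKM in DSS saline colons (SD, n = 3 each). Nr4a1, Egr1, Fosb and Dusp1 averaged 2.01, 4.22, 0.879 and 5.63 FPKM in DSS thymopentin, against 16.4, 27.6, 2.59 and 12.1 FPKM in DSS saline, and missed the threshold. The members' median SD on the scale of the test, log2(FPKM + 1), was 0.14 in DSS thymopentin and 0.70 in DSS saline, against 0.14 and 0.15 for all genes. Tests were made with limma on log2(FPKM + 1) over all genes, with Benjamini-Hochberg adjustment, and a gene passed at an adjusted p under 0.05. On this scale the change of low genes is understated. By this rule 1 of the 10 members was called lower in DSS, where 4.30% of all genes were, and 0 were called higher, where 12.7% of all genes were.

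Ier3 held 5.40, 7.10 and 5.77 FPKM in the DSS thymopentin libraries, against 19.4, 11.4 and 15.6 FPKM in the DSS saline libraries. Every thymopentin value lay below every saline value. The log2 fold change was -1.19 ± 0.17 (SE), with a limma adjusted p of 0.00236. This call held in each of the 12 fits that left out a library, with limma adjusted p between 0.00120 and 0.0126, and in each of the 8 other alternatives, with adjusted p up to 0.0173. From the authors' deposited table, read counts could be recovered for Ier3, and these were 234, 260 and 263 reads in DSS thymopentin and 914, 497 and 678 reads in DSS saline. The authors' deposited table gives Ier3 a log2 change of -1.45 (FDR 9.11e-09).

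Nr4a1 held 1.78, 2.27 and 1.98 FPKM in DSS thymopentin, against 26.8, 3.15 and 19.2 FPKM in DSS saline. All 3 thymopentin values were below the lowest saline value, which came from DSS saline 2 and stood close to them. The log2 fold change was -2.14 ± 0.71, and the limma adjusted p of 0.0606 missed the threshold. Dusp1 held 5.86, 5.81 and 5.23 FPKM in DSS thymopentin, against 17.1, 6.87 and 12.4 FPKM in DSS saline. Again the groups did not overlap and DSS saline 2 was nearest to the thymopentin libraries. Its log2 fold change was -0.90 ± 0.44 with a limma adjusted p of 0.173. Groups that did not overlap, with thymopentin lower, were seen for these 3 of the 10 members, and for 11.5% of all genes. Nr4a1 and Dusp1 are feedback and effector genes of the response: Nr4a1 is known to restrain inflammatory transcription, and Dusp1 shuts down the kinases that induced it.

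Egr1 held 4.71, 4.15 and 3.80 FPKM in DSS thymopentin, against 48.2, 4.66 and 29.8 FPKM in DSS saline. DSS saline 2 lay within the thymopentin range, and the other saline libraries were several times higher. The log2 fold change of Egr1 was -1.98 ± 0.80 with a limma adjusted p of 0.110. Behind these values, the authors' deposited table gave 810, 603 and 686 reads of Egr1 in DSS thymopentin and 9023, 808 and 5156 reads in DSS saline. Counting error is small at such depths. The SE rests on the spread in all 4 groups. On the log2(FPKM + 1) scale the SD of Egr1 was 1.64 in DSS saline and 0.13 in DSS thymopentin. It was 1.32 in TNBS thymopentin and 0.74 in TNBS saline.

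Among the AP-1 genes, Jun held 23.7, 23.3 and 24.02 FPKM in DSS thymopentin, against 50.7, 23.7 and 43.8 FPKM in DSS saline. The thymopentin libraries differed by less than 1 FPKM, and DSS saline 2 sat among them. For Jun the log2 fold change was -0.64 ± 0.27 and the limma adjusted p 0.119. Fosb, the scarcest member, held 0.743, 1.02 and 0.872 FPKM in DSS thymopentin, against 4.54, 0.772 and 2.47 FPKM in DSS saline. Its log2 fold change was -0.79 ± 0.35 with an adjusted p of 0.143, and DSS saline 2 lay within the thymopentin range. Atf3, a repressor of inflammatory genes in macrophages, held 22.6, 25.7 and 17.0 FPKM in DSS thymopentin, against 59.0, 21.7 and 49.7 FPKM in DSS saline. Its groups overlapped through DSS saline 2, and the log2 fold change was -0.87 ± 0.37 with an adjusted p of 0.129.

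Fos, Junb and Ier2 behaved otherwise, since DSS saline 2 lay below all 3 thymopentin libraries for each. Fos held 58.9, 86.9 and 61.0 FPKM in DSS thymopentin, against 138, 22.4 and 73.4 FPKM in DSS saline. The thymopentin values fell between the extremes of the saline values, and the spread of the saline group, an SD of 57.9 FPKM, was larger than any difference of means. The mean of Fos was lower in DSS thymopentin, at 68.9 against 77.9 FPKM, while the log2 fold change was 0.14 ± 0.48, so the sign depended on the scale. It was also -0.02 after rescaling the libraries by median ratios, and the adjusted p was 0.864. Junb held 49.0, 71.0 and 57.7 FPKM in DSS thymopentin, against 97.4, 41.7 and 71.5 FPKM in DSS saline. Ier2 held 35.8, 41.8 and 44.0 FPKM in DSS thymopentin, against 84.1, 33.6 and 54.7 FPKM in DSS saline. Both overlapped between the groups, with log2 fold changes of -0.18 ± 0.32 for Junb and -0.40 ± 0.26 for Ier2 and limma adjusted p of 0.736 and 0.297.

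**Figure D1:**
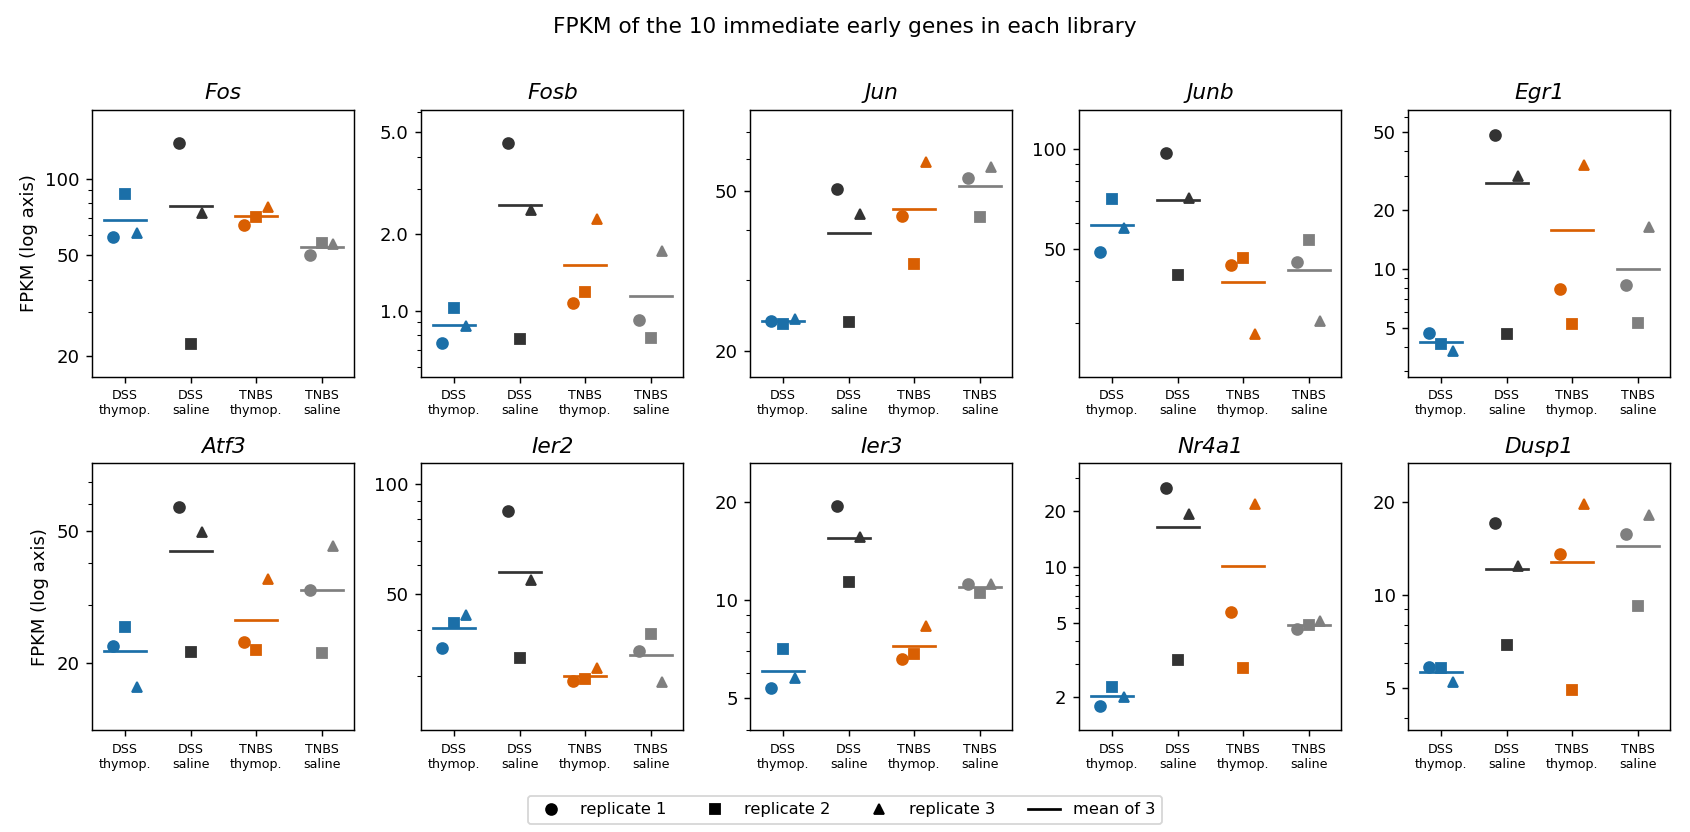
FPKM on a log axis for each of the 10 genes, with a point per library, shaped by replicate number, and a line at the mean of 3 libraries. In DSS saline the square, DSS saline 2, is the lowest point in all 10 panels and the circle, DSS saline 1, the highest, while Ier3 in DSS thymopentin, at 5.40 to 7.10 FPKM, lies wholly below DSS saline, at 11.4 to 19.4 FPKM.

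As a group the 10 members had a median log2 fold change of -0.83 in DSS, against 0.12 over all genes tested, and 9 of 10 were below 0 where 33.9% of all genes were. At an unadjusted p under 0.05, 6 of the 10 were lower, namely Ier3, Nr4a1, Egr1, Jun, Atf3 and Fosb, where 9.09% of all genes were lower and 33.8% passed in either direction. The members share their libraries and move together, so these are not 10 separate observations. Rescaling by median ratios put the median of all genes in DSS at -0.01 and that of the members at -0.96. It divides all genes of a library by the same factor, so it cannot bring the members nearer to the rest.

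The order of the DSS saline libraries was the same for all members. DSS saline 1 was the highest of its group for 10 of 10 members, against 27.1% of all genes, and DSS saline 2 the lowest for 10 of 10, against 21.9% of all genes. DSS saline 2 was the highest of the 3 for 48.8% of all genes. The ratio of DSS saline 1 to DSS saline 2 was 10.4 for Egr1, 8.51 for Nr4a1, 6.15 for Fos and 5.88 for Fosb. It was between 2.14 and 2.72 for Jun, Junb, Ier2, Dusp1 and Atf3, and 1.71 for Ier3. On the log2(FPKM + 1) scale the SD of single members ran between 0.36 for Ier3 and 1.64 for Egr1 in DSS saline. In DSS thymopentin it ran between 0.022 for Jun and 0.31 for Fos, with Atf3 at 0.29 and Junb at 0.26. DSS saline 1 and 3 both lay above all thymopentin libraries for 9 of the 10 members, Fos being the exception. These 2 libraries were set apart after the members' values were seen, and the share of all genes was not computed. With all 3 saline libraries it was 3 members, against 11.5% of all genes. DSS saline 2 lay above them for Ier3, Nr4a1 and Dusp1, within their range for Fosb, Jun, Egr1 and Atf3, and below them for Fos, Junb and Ier2.

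**Figure D2:**
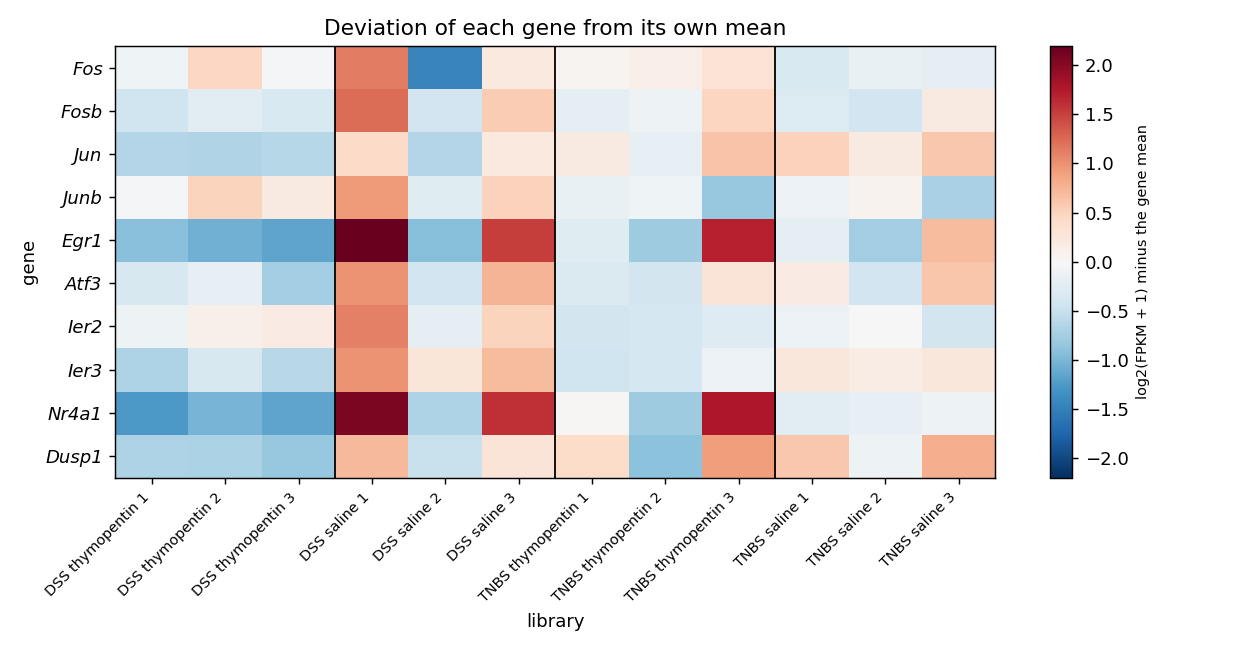
Deviation of log2(FPKM + 1) from the gene's own mean over the 12 libraries, with genes down the page, libraries across it and red for higher. DSS saline 1 and 3 are the reddest columns, with TNBS thymopentin 3 red for Egr1 and Nr4a1, and DSS saline 2 is the lowest of its group in every row, with a deep blue Fos.

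The number of members called in DSS depended on DSS saline 2 more than on any other library. The call on Ier3 held without that library. With that library left out, 7 of the 10 members were lower in DSS thymopentin by the limma test: Ier3, Nr4a1, Egr1, Fosb, Jun, Atf3 and Ier2. Of all genes 3.21% were lower in that fit. Since DSS saline 2 was the lowest of its group for all 10 members, leaving it out raises their saline means. The gain in calls is thus built in and supports nothing further. Nr4a1 then changed by -2.98 on the log2 scale with an adjusted p of 0.0112 and Egr1 by -2.90 with an adjusted p of 0.0196. Nr4a1 also passed, at an adjusted p of 0.0352, without TNBS thymopentin 3, which shares the estimate of the spread. Leaving out any of the other 10 libraries left 1 member called. Nothing in the labels sets DSS saline 2 apart, and the values of all 12 libraries are the ones reported first. Its smooth muscle markers summed to 2856 FPKM, against 3403 and 3356 FPKM in DSS saline 1 and 3, and its 12 heat shock genes to 500.0 FPKM, against 669 and 536 FPKM. Other lists were highest in it. Its 6 immune markers summed to 72.5 FPKM, against 43.8 and 36.3 FPKM in DSS saline 1 and 3, and its 4 endothelial markers to 14.8 FPKM, against 9.48 and 11.6 FPKM. The 2 red blood cell markers in the table summed to 43.4 FPKM in DSS saline 2, against 8.58 and 30.1 FPKM. The part of these differences in the members' levels was not tested.

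**Figure D3:**
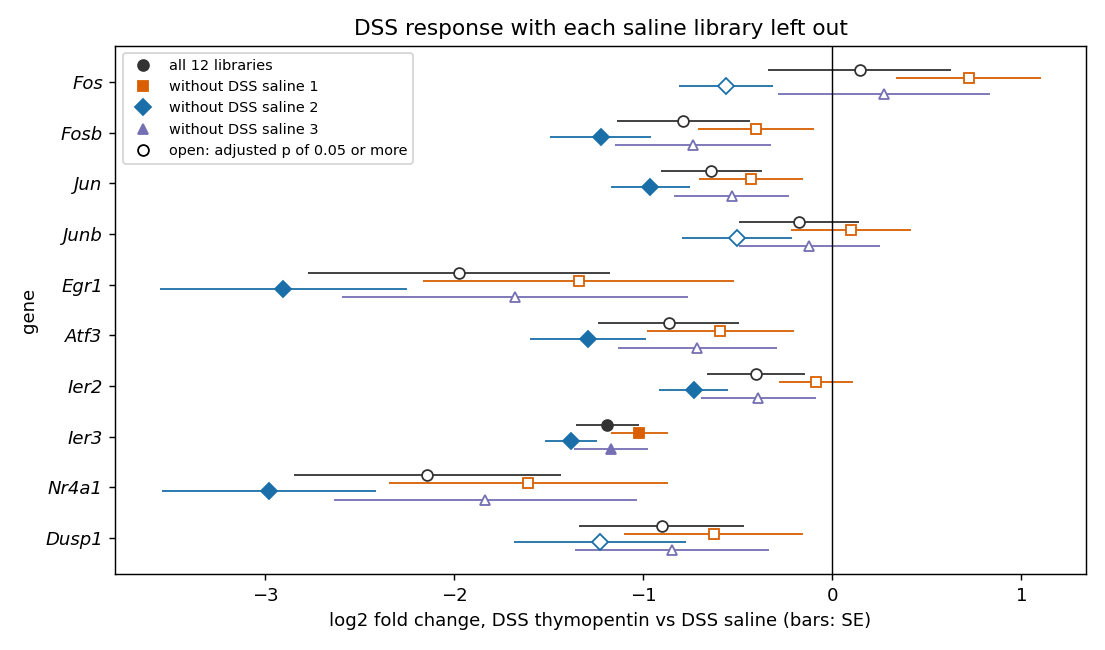
Log2 fold change of DSS thymopentin over DSS saline, with its SE, for all 12 libraries and with each DSS saline library left out, where filled symbols mark a limma adjusted p under 0.05. Only Ier3 is filled in all 4 fits, and 7 of the 10 genes are filled without DSS saline 2.

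The makeup of the tissue differed between the DSS groups as well. The smooth muscle list Myh11, Acta2, Des, Tagln, Cnn1 and Actg2 summed to 1241 to 1885 FPKM in DSS thymopentin and 2856 to 3403 FPKM in DSS saline, with no overlap. Of its 6 genes 3 were called lower, and none was at 0. The 5 fibroblast markers summed to 73.0 to 85.8 FPKM in DSS thymopentin and 99.6 to 114 FPKM in DSS saline, with 2 called lower. The 5 markers of neurons and glia summed to 9.71 to 17.6 FPKM in DSS thymopentin and 22.2 to 30.4 FPKM in DSS saline, with 4 called lower. Of the 6 epithelial markers 2 were called higher, with sums of 3339 to 3905 FPKM in DSS thymopentin and 3042 to 3696 FPKM in DSS saline. The 6 immune markers summed to 24.8 to 59.4 FPKM in DSS thymopentin and 36.3 to 72.5 FPKM in DSS saline, with overlap. The 4 endothelial markers summed to 8.42 to 9.39 FPKM in DSS thymopentin and 9.48 to 14.8 FPKM in DSS saline. The part of muscle, stromal and nerve RNA in the lower levels of Ier3 and the other members was not tested.

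The authors' deposited table for DSS lists 2326 genes past a p-value and a fold threshold, where the FPKM cover 55335. Of these 2326 genes 1454 are lower and 872 higher in thymopentin. The list holds 6 of the 10 members, all lower. Of these 6 members 4 have an FDR under 0.05, as have 1555 of the 2326 genes listed. Besides Ier3, the authors' deposited table gives Nr4a1 a log2 change of -2.68 (FDR 0.00182). Egr1 has -2.30 with an FDR of 0.0117 and Dusp1 -1.14 with an FDR of 0.000117 in the authors' deposited table. Fosb and Atf3 are at -1.36 and -1.03 in the authors' deposited table, with FDR of 0.101 and 0.111. The authors' calls on Nr4a1, Egr1 and Dusp1 thus differ from those on the FPKM, where these genes missed the threshold. The 4 members that the authors' deposited table does not list for DSS are Fos, Jun, Junb and Ier2.

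In TNBS colitis no member passed the test between thymopentin and saline, where 0.384% of all genes were called lower and 0.283% higher. Ier3 came nearest. It held 6.59, 6.83 and 8.35 FPKM in TNBS thymopentin, against 11.2, 10.5 and 11.2 FPKM in TNBS saline, with no overlap. Its log2 fold change was -0.54 ± 0.17 with a limma adjusted p of 0.198. It was the 1 member with an unadjusted p under 0.05, where 12.7% of all genes had one. Fos was the only member whose TNBS groups did not overlap the other way, with 65.6, 70.3 and 77.6 FPKM in TNBS thymopentin and 49.9, 56.0 and 55.2 FPKM in TNBS saline. The log2 fold change of Fos was 0.40 ± 0.48 with an adjusted p of 0.808, and its SE, which rests on the spread in all 4 groups, was 0.22 without DSS saline 2. No member passed in any of the 12 fits that left out a library, and without TNBS saline 3 Ier3 was at -0.53 with an adjusted p of 0.284. Groups that did not overlap were found with thymopentin lower for 6.75% of all genes and higher for 12.1%.

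Nr4a1 held 5.75, 2.85 and 21.8 FPKM in TNBS thymopentin, against 4.63, 4.86 and 5.14 FPKM in TNBS saline. The high value came from TNBS thymopentin 3 alone, and the log2 fold change was 0.52 ± 0.71 with all libraries and -0.20 without it. Egr1 held 7.90, 5.23 and 34.1 FPKM in TNBS thymopentin, against 8.26, 5.31 and 16.3 FPKM in TNBS saline. Dusp1 held 13.5, 4.93 and 19.7 FPKM in TNBS thymopentin, against 15.7, 9.22 and 18.1 FPKM in TNBS saline. For Egr1 and Dusp1 library 3 was the highest of each group and library 2 the lowest. Atf3 was at 23.2, 21.9 and 35.9 FPKM in TNBS thymopentin, against 33.3, 21.5 and 44.9 FPKM in TNBS saline. Jun was at 43.3, 33.0 and 58.9 FPKM in TNBS thymopentin, against 53.9, 43.0 and 57.3 FPKM in TNBS saline. The groups of Atf3 and Jun overlapped, and library 3 was again the highest of each.

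Junb ran the other way, with 44.7, 47.1 and 27.8 FPKM in TNBS thymopentin, against 45.8, 53.3 and 30.4 FPKM in TNBS saline, where library 3 was the lowest of each group. Ier2 was at 29.1, 29.5 and 31.5 FPKM in TNBS thymopentin, against 35.1, 39.0 and 28.9 FPKM in TNBS saline. Fosb was at 1.07, 1.18 and 2.28 FPKM in TNBS thymopentin, against 0.918, 0.778 and 1.71 FPKM in TNBS saline. Both overlapped between the groups. Between same-numbered TNBS libraries, Fos and Fosb were higher in the thymopentin library in 3 of 3, and Junb and Ier3 lower in 3 of 3. The share of all genes that kept the same direction in 3 of 3 was not computed. Pairing by number is not established either. With the replicate block Fos, Fosb, Junb and Ier3 did not pass, with limma adjusted p of 0.802, 0.816, 0.912 and 0.292. TNBS thymopentin 3 was the highest of its group for 9 of 10 members and 35.8% of all genes, and TNBS saline 3 the highest of its group for 6 members and 37.2% of all genes. Both held much Fabp2 and less Hoxb13 than the other libraries of their groups. TNBS saline 1, with as much Fabp2 and Hoxb13 as TNBS thymopentin 3, was the highest of its group for 1 member, Ier3. Whether the stretch of colon has a part in the members' levels was not tested. Over the members the median log2 fold change in TNBS was -0.14, against 0.03 for all genes, and 6 of 10 were below 0, against 43.3% of all genes. The authors' deposited table for TNBS lists 1173 genes and 0 members. Fibroblast markers, of which 2 of 5 were called higher in TNBS, summed to 59.3 to 76.3 FPKM in TNBS thymopentin and 40.5 to 42.6 FPKM in TNBS saline.

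**Figure D4:**
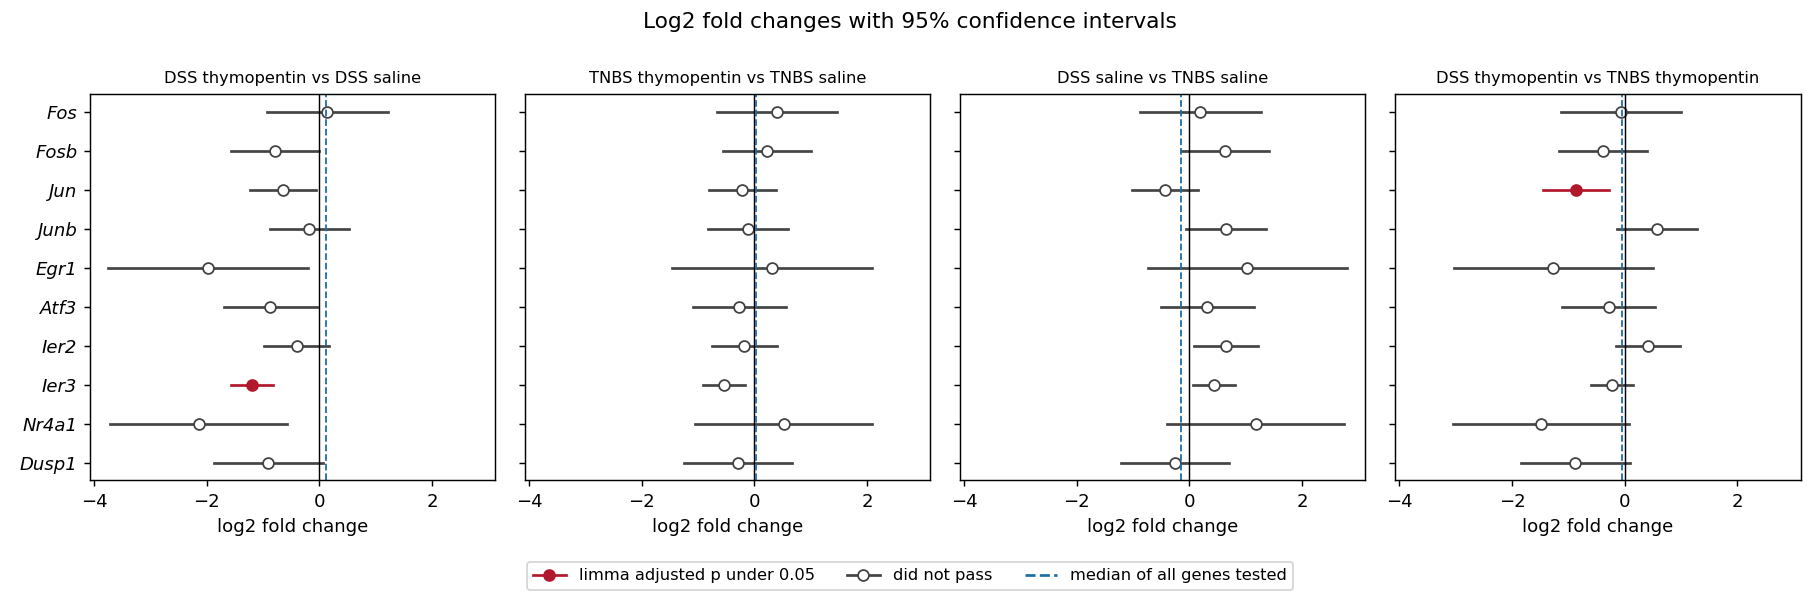
Log2 fold changes with 95% confidence intervals for the 10 genes in 4 comparisons, with filled red points where limma's adjusted p was under 0.05 and a dashed line at the median of all genes. Ier3 at -1.19 in DSS and Jun at -0.86 between the thymopentin groups are the filled points, and in DSS 9 of the 10 points lie left of 0.

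The difference between the responses, DSS minus TNBS, was tested as an interaction, and 0 of 10 members passed, where 2.42% of all genes were called lower and 2.73% higher. At an unadjusted p under 0.05 there were 2 members, Ier3 and Nr4a1, against 22.1% of all genes. Nr4a1 differed by -2.66 ± 0.9995 with a limma adjusted p of 0.148, and Ier3 by -0.65 ± 0.24 with an adjusted p of 0.135. All 10 differences were below 0, where 36.9% of all genes were, with a median of -0.61, against 0.11 for all genes. Without DSS saline 2, Ier3 and Nr4a1 passed, at -0.84 with an adjusted p of 0.0408 and at -3.50 with an adjusted p of 0.0401. In that fit 4.24% of all genes passed, and 207 of the 13794 were lower. As the library left out was the members' lowest in DSS saline, the larger differences are built in. With all libraries the data thus do not show that the response of any member differs between the models.

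Between the saline groups, DSS minus TNBS, no member passed either, although 15.2% of all genes were called higher and 31.5% lower. Ier3 was higher in DSS saline, at 15.4 ± 4.02 FPKM, against 11.0 ± 0.384 FPKM in TNBS saline, with groups that did not overlap, as for 18.8% of all genes. Its log2 difference was 0.43 ± 0.17 with a limma adjusted p of 0.0559. Ier2 averaged 57.5 ± 25.4 FPKM in DSS saline and 34.3 ± 5.11 FPKM in TNBS saline, with a log2 difference of 0.64 ± 0.26 and an adjusted p of 0.0621. Nr4a1 averaged 16.4 ± 12.1 FPKM in DSS saline and 4.88 ± 0.258 FPKM in TNBS saline, and Egr1 27.6 ± 21.9 FPKM in DSS saline and 9.97 ± 5.70 FPKM in TNBS saline. Their log2 differences, 1.17 ± 0.71 and 1.03 ± 0.80, were within the spread of the DSS saline libraries. At an unadjusted p under 0.05, Ier3 and Ier2 passed, 2 of 10 against 53.6% of all genes. No member was lower in DSS saline without overlap, where 37.7% of all genes were. The members' median was 0.53, against -0.14 for all genes, and 2 of 10, Jun and Dusp1, were below 0, against 61.6% of all genes. Without DSS saline 2, 7 members passed as higher in DSS saline: Fos, Fosb, Junb, Egr1, Ier2, Ier3 and Nr4a1. Of all genes 13.2% did. Here too the gain is built in, since the library left out was the members' lowest in DSS saline. This comparison shares the DSS saline libraries with the DSS response to thymopentin, so high saline values enter each with opposite sign.

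Between the thymopentin groups Jun was the 1 member called, with 23.7 ± 0.376 FPKM in DSS thymopentin and 45.03 ± 13.1 FPKM in TNBS thymopentin. Its log2 difference was -0.86 ± 0.27 with a limma adjusted p of 0.0362, where 16.5% of all genes were called lower and 11.0% higher. The call was lost in 6 of the 12 fits that left out a library, with adjusted p up to 0.127 without TNBS thymopentin 3, and it was lost with no filter and after median-ratio rescaling. The other libraries whose removal ended it were TNBS thymopentin 1, TNBS saline 1 and DSS thymopentin 1, 2 and 3, with adjusted p of 0.0516 to 0.0935. Jun, Fosb, Egr1 and Nr4a1 were lower in DSS thymopentin with no overlap, as were 27.6% of all genes, and Junb and Ier2 higher with no overlap, as were 18.7%. Jun was also the 1 member with an unadjusted p under 0.05, where 40.8% of all genes had one. The log2 differences of 8 of 10 members were below 0, against 54.5% of all genes, with a median of -0.34, against -0.04 for all genes. Dusp1 passed only without TNBS thymopentin 2, at -1.39 with an adjusted p of 0.0249. Junb averaged 59.2 ± 11.1 FPKM in DSS thymopentin and 39.9 ± 10.5 FPKM in TNBS thymopentin, and Ier2 40.5 ± 4.25 FPKM in DSS thymopentin and 30.03 ± 1.27 FPKM in TNBS thymopentin.

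Ordered by mean level, DSS saline led for 8 of the 10 members, and Jun and Dusp1 were led by a TNBS group. Within DSS saline, library 2 was the lowest for all 10. For how many of all genes DSS saline led, or DSS thymopentin was lowest, was not computed. Neighbours in the order overlapped in most cases. DSS saline stood clear of the next group for Ier3, where TNBS saline stood clear of TNBS thymopentin in turn. DSS thymopentin was the lowest group for 7 members, with TNBS saline just above it for Egr1 and Nr4a1 and DSS saline just above it for Dusp1, each without overlap. Fos was lowest in TNBS saline, clear of DSS thymopentin above it. Levels per length spread widely between members: in DSS saline they ran between 2.59 FPKM for Fosb and 77.9 FPKM for Fos.

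Members varied together from library to library, with Junb apart. After the group means were taken off log2(FPKM + 1), the Pearson correlation of a member with the other members over the 12 libraries had a median of 0.70 to 0.89 for 9 members and 0.21 for Junb. Jun and Egr1 were the closest pair, at 0.97, followed by Jun and Nr4a1, at 0.94. Junb and Dusp1 were the least alike, at -0.08. These are descriptions over 12 libraries that share their depth and tissue makeup, with DSS saline 1 and 2 at the ends.

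The genes whose log2(FPKM + 1) followed the members' mean most closely over the 12 libraries were Ptgs2, Cyr61, Hbegf, Nr4a2, Nfil3, Thbs1, Itga5 and Phlda1, among 5385 genes ranked. Pearson's r was 0.91 for Ptgs2, the inducible cyclooxygenase, 0.88 for Cyr61, a matricellular protein, and 0.86 for Hbegf, an EGF receptor ligand. For the remaining 5 it lay between 0.79 and 0.84. Ptgs2 held 1.09, 0.671 and 1.08 FPKM in DSS thymopentin, against 7.65, 1.09 and 4.11 FPKM in DSS saline. Nr4a2, the near relative of Nr4a1, held 0.783, 0.475 and 0.849 FPKM in DSS thymopentin, against 2.998, 1.07 and 2.54 FPKM in DSS saline. As for the members, DSS saline 2 was the lowest of its group in both. In DSS 3 of these 8 genes were called lower: Nfil3 at -1.67, Phlda1 at -1.07 and Itga5 at -0.98, with limma adjusted p of 0.0181, 0.0281 and 0.0182. Since they were chosen for their likeness to the members, this count supports nothing about them.

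**Figure D5:**
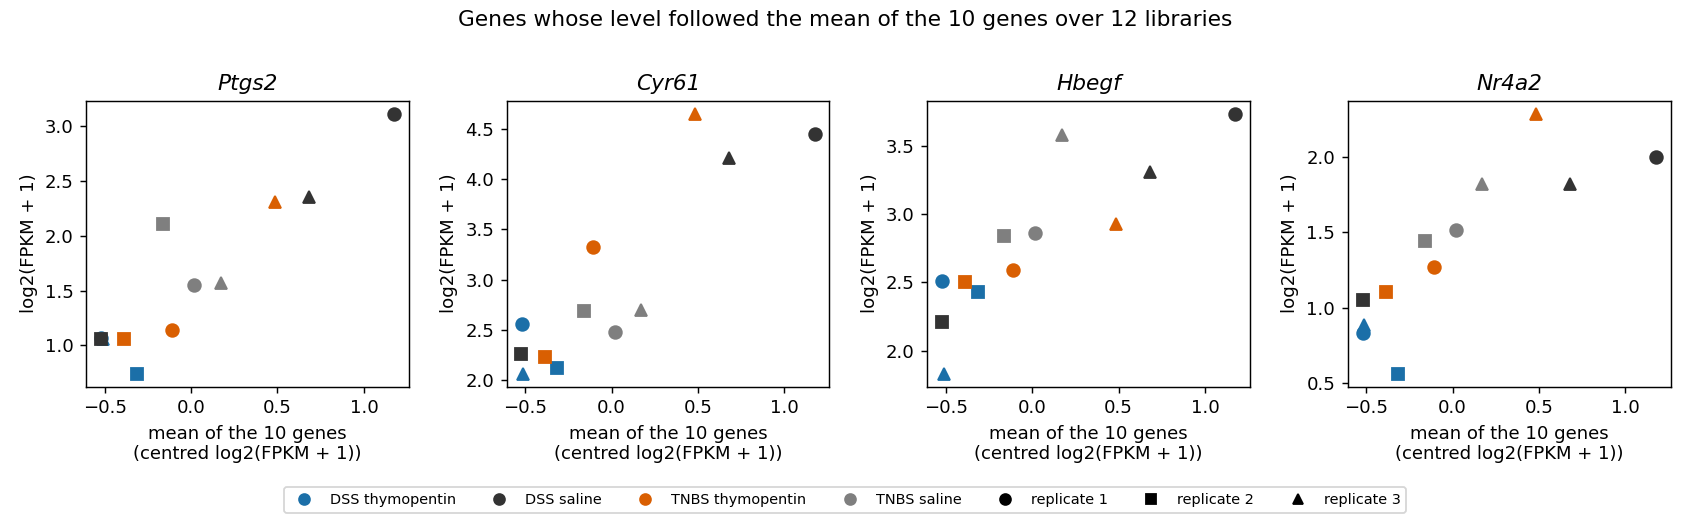
log2(FPKM + 1) of the 4 genes most like the members against the members' mean, centred for each gene, with 12 libraries coloured by group and shaped by replicate number. All 4, with r between 0.84 and 0.91, are high in DSS saline 1 and 3 and low in DSS saline 2 and the DSS thymopentin libraries, and Cyr61 and Nr4a2 are highest in TNBS thymopentin 3.

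With the group means off, the genes most like the members were Xlr3b, Gadd45g, Tmem175, Clock, Cyr61, Irf7, Gsdmcl-ps and Xcl1, with r between 0.88 and 0.92. Gadd45g is a stress-induced growth arrest gene, Clock a core factor of the circadian clock, Irf7 an interferon regulator and Xcl1 a lymphocyte chemokine. Only Cyr61 is on both rankings.

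The wider response was read from 6 lists of related genes, of which 18 of 87 genes tested, or 20.7%, were called in DSS, against 17.0% of all genes. Of 11 other AP-1 and related genes tested, of 13 listed, 1 was called lower in DSS and 0 higher. This was Maff, a small Maf factor, at 5.91 ± 0.567 FPKM in DSS thymopentin and 9.83 ± 0.563 FPKM in DSS saline, with a log2 fold change of -0.65 and a limma adjusted p of 0.0399. Of 3 other Egr, Nr4a and corepressor genes tested, of 7 listed, 1 was called lower: Nab2, the corepressor of Egr1, at -0.50 with an adjusted p of 0.0389. Most of that family lay under the filter. Nr4a3 held 0.457, 0.276 and 0.376 FPKM in DSS thymopentin, against 2.25, 0.767 and 1.501 FPKM in DSS saline, with no overlap and DSS saline 2 again the lowest of its group. The authors' deposited table gives Nr4a3 a log2 change of -2.03 (FDR 2.91e-07). Fosl1, a Fos relative, is at -2.07 with an FDR of 0.00868 in the authors' deposited table, and Arc, a neuronal early gene, at -2.17 with an FDR of 8.77e-06. Both lay under the filter. Fosl1 held 0.197, 0.188 and 0.0304 FPKM in DSS thymopentin, against 0.519, 0.562 and 0.388 FPKM in DSS saline. Arc held 0.229, 0.275 and 0.322 FPKM in DSS thymopentin, against 1.93, 0.450 and 1.75 FPKM in DSS saline. Egr2 and Egr3, also under the filter, are at -1.19 and -1.06 in the authors' deposited table, with FDR of 0.0636 and 0.191.

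Of 28 other immediate early genes tested, of 32 listed, 3 were called lower and 3 higher in DSS, so they did not move one way. Nfil3, a bZIP factor of immune cells, fell by 1.67 on the log2 scale. It held 1.05, 0.948 and 0.939 FPKM in DSS thymopentin, against 9.31, 3.15 and 4.89 FPKM in DSS saline. Ier5, an activator of heat shock factor, fell by 0.58 with a limma adjusted p of 0.0104, at 11.3 ± 1.40 FPKM in DSS thymopentin and 17.3 ± 0.489 FPKM in DSS saline. Klf4, a factor of differentiated colon epithelium, rose by 0.69 with an adjusted p of 0.00737, to 229 ± 32.4 FPKM in DSS thymopentin, against 141 ± 17.2 FPKM in DSS saline. Id3, an inhibitor of basic helix-loop-helix factors, rose by 0.96 with an adjusted p of 0.0152. The list's median in DSS was -0.10, against 0.12 for all genes.

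Among 8 genes of RNA decay and NF-kB feedback, Socs3 fell and Zfp36l2 rose in DSS. Socs3, the inhibitor of STAT3 signalling, held 4.27, 7.59 and 7.09 FPKM in DSS thymopentin, against 48.2, 28.2 and 23.9 FPKM in DSS saline, with no overlap. Its log2 fold change of -2.20 ± 0.36, with a limma adjusted p of 0.00469, was larger than that of Ier3, and DSS saline 2 was not the lowest of its group. Zfp36l2, which promotes decay of AU-rich transcripts, rose by 0.53 with an adjusted p of 0.0111. Of 14 other MAP kinase phosphatases and feedback genes, Dusp5 fell by 0.65 and Spry4 by 0.60, and Dusp16 rose by 0.73 and Spred2 by 0.35, with adjusted p of 0.0226, 0.0231, 0.00236 and 0.0196. Dusp5 acts on nuclear ERK, Dusp16 on JNK, and Spry4 and Spred2 restrain the Ras pathway. Of 23 upstream kinases and factors tested, of 24 listed, 3 rose in DSS, Map2k6 by 0.66, Rps6ka1 by 0.40 and Atf1 by 0.88, and Elk3 fell by 0.37. Of 12 heat shock genes, Hspb1 alone was called, at -1.71 with an adjusted p of 0.0214. In TNBS 0 of the 87 related genes passed the limma test with thymopentin, against 0.667% of all genes, and 10 had an unadjusted p under 0.05. The authors' deposited table for TNBS gives Dusp10, a phosphatase of p38 and JNK, a log2 change of -1.27 (FDR 0.00448).

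Between the saline groups 46 of the 87 related genes passed the limma test, or 52.9%, against 46.6% of all genes. The values that follow are log2 differences, DSS saline minus TNBS saline. Of the other AP-1 and related genes 5 were higher and 2 lower in DSS saline, among them Jdp2 at 0.83, Batf at 1.40 and Cebpb at 1.25, and Mafg at -0.49. Nab2 was higher at 0.79. Of the other immediate early genes 7 were higher and 4 lower, among them Klf2 at 1.36, Id2 at 1.07 and Gadd45g at 1.52, and Klf4 at -0.64. Socs3 at 1.97 and Bcl3 at 0.68 were higher, and Zfp36l2 at -0.82 and Nfkbiz at -0.58 lower, in a list with 3 higher and 2 lower. Of the phosphatases and feedback genes 4 were higher and 5 lower, among them Spry2 at 0.57, and Dusp16 at -1.27, Dusp4 at -0.92 and Spred2 at -0.43. Of the upstream genes 1 was higher, Elk3 at 0.85, and 12 lower, among them Mkl2 at -1.02, Mapk9 at -0.54 and Map2k6 at -0.52. Of the heat shock genes Hspb1 at 1.61 and Hspa8 at 0.51 were higher and Hspd1 at -1.28 and Hsp90aa1 at -0.88 lower.

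Between the thymopentin groups 21 of the 87 passed, or 24.1%, against 27.5% of all genes, with log2 differences of DSS thymopentin minus TNBS thymopentin. Here 2 other AP-1 and related genes were higher in DSS thymopentin, Batf2 at 0.91 and Batf at 1.01. Of the other immediate early genes 6 were higher and 4 lower, and the 4 with the smallest p were all higher: Id2 at 0.85, Gadd45a at 0.76, Id3 at 0.93 and Gadd45b at 0.90. Zfp36l2 was lower at -0.39. Dusp4 at -0.87, Dusp16 at -0.48, Spred1 at -0.42 and Dusp8 at -0.79 were lower. Of the upstream genes Mkl2 at -0.81 and Mapk8 at -0.34 were lower and Elk3 at 0.41 higher. Hspd1 at -1.02 and Hsp90aa1 at -1.10 were the 2 heat shock genes called.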

How the data were processed

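RNA of 12 colon libraries was sequenced after TRIzol extraction and strand-specific TruSeq preparation, per the labels' protocols. Tools listed in the submitters' processing notes, in no stated role, are STAR 2.5, Cuffnorm, DESeq 1.22.1 and FastQC, and the build listed is mm9. The authors deposited FPKM for 55335 genes in all libraries. For genes they selected, the authors also deposited log2 values per library and log2 fold changes (thymopentin minus saline), per the file headers, with a p-value and an FDR. Raised back from log2, low values of up to 30 reads were whole multiples of a step per library, within 0.01 reads for 7326 of 7326 values, with size factors of 0.847 to 1.12. Total reads per library are not stated in the sources used here, and reads could be recovered only for genes already selected, so no count test was run.

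Genes with a mean of at least 1 FPKM (13794) were fitted on log2(FPKM + 1) with limma 3.58.1 in R 4.3.3, with 4 group means, 8 residual degrees of freedom and an empirical Bayes trend. All p-values are two-sided and adjusted over all genes tested by the Benjamini-Hochberg method, within each of the 5 comparisons. An exact permutation test of 3 libraries against 3 cannot go below 0.1 and was not used. Tables were read with Python 3.11.15, pandas 2.3.3 and numpy 2.4.6, and plots drawn with matplotlib 3.10.9. The fit was tested on simulated data. Promoters are RefSeq's on GRCm38.p6, a later build than that of the values, and were used for sequence only. Alternatives were a pseudocount of 0.1, a minimum mean of 5 FPKM, no filter, quantile normalization, median-ratio rescaling, a replicate block, only the libraries compared, gene-by-gene array weights, and leaving out each library.

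The members and the gene lists were chosen with earlier results of these data known. Named besides the members were up to 4 called genes per related list and comparison by p, and the 8 genes most correlated with the members' mean (SD of at least 0.3 on the log2 scale, unnamed gene models left out), with and without group means. Hoxb13 and Fabp2, and genes under the filter, were named after their values had been seen, as were the promoters shown. The rule names 1 further called gene, which is not reported here. Of symbols with more than 1 row, lists used the row with the higher mean. Replicate numbers are shared between groups. Deviations of same-numbered libraries correlated at 0.124, 0.268 and 0.476 in TNBS and at -0.136, 0.043 and -0.140 in DSS. In TNBS, differently numbered libraries ran between -0.442 and 0.287, the highest for TNBS thymopentin 1 with TNBS saline 2. Pairing by number is thus not established in either model, and the replicate block is an alternative only.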

Additional observations from a re-analysis of the deposited data

Results flagged for a closer look

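The effect of thymopentin differed between DSS and TNBS colitis, by the limma test of the difference itself, for 8 genes named above. None of them is among the 10 members, of which 0 passed. Of the 87 genes of the 6 related lists 3 passed, or 3.45%, against 5.15% of all genes. These were Dusp16, Spry4 and Gadd45g. Hspb1 is from the heat shock list. For each, the value is the DSS response minus the TNBS response on the log2(FPKM + 1) scale. Irf7 differed by 1.60, with an adjusted p of 0.0117: it was at 52.4, 46.7 and 42.7 FPKM in DSS thymopentin and 46.5, 26.8 and 33.4 FPKM in DSS saline, and at 8.10, 6.60 and 9.55 FPKM in TNBS thymopentin and 19.8, 17.9 and 19.9 FPKM in TNBS saline. Clock differed by 0.89, with an adjusted p of 0.0306, at 4.88 to 5.31 FPKM in DSS thymopentin and 1.32 to 2.498 FPKM in DSS saline. The response of Dusp16 differed by 0.79, with an adjusted p of 0.0179. Of the genes with a lower response in DSS, Hspb1 differed by -2.36 with an adjusted p of 0.0462 and Gsdmcl-ps by -1.79 with an adjusted p of 0.0371. Gadd45g differed by -1.53 with an adjusted p of 0.0477, Itga5 by -1.29 with an adjusted p of 0.0454 and Spry4 by -0.93 with an adjusted p of 0.0359. Hspb1 was higher in TNBS thymopentin, at 76.4 ± 15.1 FPKM, than in TNBS saline, at 50.9 ± 21.8 FPKM, which did not pass the test, and lower in DSS thymopentin, at 49.0 ± 23.2 FPKM, than in DSS saline, at 152 ± 44.4 FPKM. Irf7, Clock, Gadd45g, Gsdmcl-ps and Itga5 were named for their likeness to the members over the same libraries, so their passing supports nothing about the members. Itga5 was ranked with group means left in, so its group pattern entered its choice. Fits that left out a library were not examined for these 8 genes. Over all genes such fits called 176 to 764 differences.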

How the results depend on the processing

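Over the 10 members and 5 comparisons, 964 of 985 values under alternatives kept their direction and 923 also their side of the threshold, while 33 passed newly and 8 no longer. Of 21 that changed sign, 1 did not come from leaving out a library: Fos in DSS after median-ratio rescaling, at -0.016. Leaving out libraries, the DSS change of Fos ranged between -0.56 and 0.72 and that of Junb between -0.50 and 0.098. In TNBS the ranges were -0.34 to 0.12 for Junb, -0.43 to 0.82 for Egr1, -0.20 to 1.08 for Nr4a1 and -0.67 to 0.23 for Dusp1. For the difference they were -0.96 to 0.32 for Fos, -0.39 to 0.21 for Junb and -0.56 to 0.091 for Ier2. Between the saline groups they were -0.39 to 0.90 for Fos and -0.53 to 0.069 for Dusp1, and between the thymopentin groups -0.24 to 0.037 for Fos. The cause was not tested.

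Members called in DSS numbered 5 with array weights, against 1 (1 to 7 leaving out libraries). In TNBS 1 was called with array weights, against 0 (0 to 0), and for the difference 1, against 0 (0 to 2). Between the saline groups 2 were called with quantile normalization, 2 after median-ratio rescaling and 5 with array weights, against 0 (0 to 7). Between the thymopentin groups 0 were called with no filter, 0 after median-ratio rescaling and 2 with only the libraries compared, against 1 (0 to 2). Over all genes, 1447 were called in DSS with a minimum of 5 FPKM, where fewer genes are tested, and 3854 with array weights, against 2346 (923 to 2505). In TNBS there were 44 with no filter, 6 with only the libraries compared and 1055 with array weights, against 92 (41 to 116). For the difference there were 385 with a minimum of 5 FPKM, 355 with no filter and 2327 with array weights, against 710 (176 to 764). Between the saline groups there were 3661 with a minimum of 5 FPKM, against 6431 (5347 to 6434), and between the thymopentin groups 3799 (2052 to 3999). Of the calls over all genes in DSS 74.7% were higher, against 52.5% with quantile normalization and 44.0% after median-ratio rescaling. In the difference 53.0% were higher, against 71.4% with a minimum of 5 FPKM and 33.8% after median-ratio rescaling. The replicate block changed no call on a member: in DSS Ier3 had an adjusted p of 0.0173 and Nr4a1 0.0701 with it, and in TNBS Ier3 0.292. With a minimum of 5 FPKM Fosb was not tested. The limits are 3 libraries a group, an unknown depth and a DSS saline group whose libraries differed up to 10.4 times.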
